A study of Mus musculus with 12 samples.

Results

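Smooth muscle contractile genes encode the actin-binding and regulatory proteins of the smooth muscle contractile apparatus. The 8 genes *Tagln*, *Cnn1*, *Cnn2*, *Smtn*, *Mylk*, *Cald1*, *Lmod1* and *Synpo2* were chosen by symbol, and all 8 were found among the 17827 genes with reads. RNA-seq was performed on whole embryonic hearts of CD1 mice, in control embryos carrying Mesp1Cre and 1 floxed beside 1 wild-type *Hira* allele (Mesp1Cre;Hira+/fl), and in mutant embryos carrying Mesp1Cre and 1 floxed beside 1 null allele (Mesp1Cre;Hira-/fl). Each genotype was taken at embryonic day 11.5 (E11.5) and at E12.5, with 3 libraries in each of the 4 groups, 12 in all. All embryos thus share Mesp1Cre and a floxed allele. Mesp1Cre recombines in early cardiac mesoderm, so cells of other origin in these hearts, such as neural crest, keep the allele intact, and the null allele of the mutants is present in every cell. *Hira* encodes a chaperone that deposits the histone variant H3.3.

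In a smooth muscle cell, actin filaments slide along myosin once myosin light chain kinase, the product of *Mylk*, has phosphorylated the regulatory light chain. Transgelin (*Tagln*, also called SM22 alpha), the calponins, caldesmon (*Cald1*) and smoothelin (*Smtn*) bind the actin filament, leiomodin 1 (*Lmod1*) nucleates it, and synaptopodin 2 (*Synpo2*) sits with actin-bundling proteins. Many of these genes are targets of serum response factor, which binds a short element called the CArG box, and several of them, *Tagln* and *Cnn1* among them, are known to be active for a time in the embryonic heart muscle as well as in smooth muscle.

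Total counts per library ran from 11994148 to 17483982. *Hira*, counted over the whole gene, stood at 79.5, 86.2 and 68.6 CPM (counts scaled to a common library size) in the E11.5 control libraries and at 73.7, 57.0 and 63.3 in the E11.5 mutants, and its mutant effect was -0.27 on the log2 scale at E11.5 (SE 0.14, edgeR adjusted p = 0.589) and -0.01 at E12.5 (SE 0.12, edgeR adjusted p = 0.961). Reads of the deleted part could not be told apart from the rest of the gene, so these counts do not check the genotypes. The embryos of all 3 E11.5 control libraries were male by their Y-linked reads, as were 1 of 3 in each other group. Libraries also differed in the level of short against long genes. In replicate 3 of the E11.5 mutants, genes shorter than 1500 bases had a median log2 difference of 0.37 from their mean over all libraries, and genes longer than 6000 bases one of -0.38. Controls 1 and 3 at E11.5 leaned the same way, and the E12.5 controls leaned the opposite way, with -0.24 and 0.26 in replicate 1. A correction for gene length was added after these values were seen. The 8 genes gained and lost no call with it in any of the 5 comparisons.

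**Figure D1:**
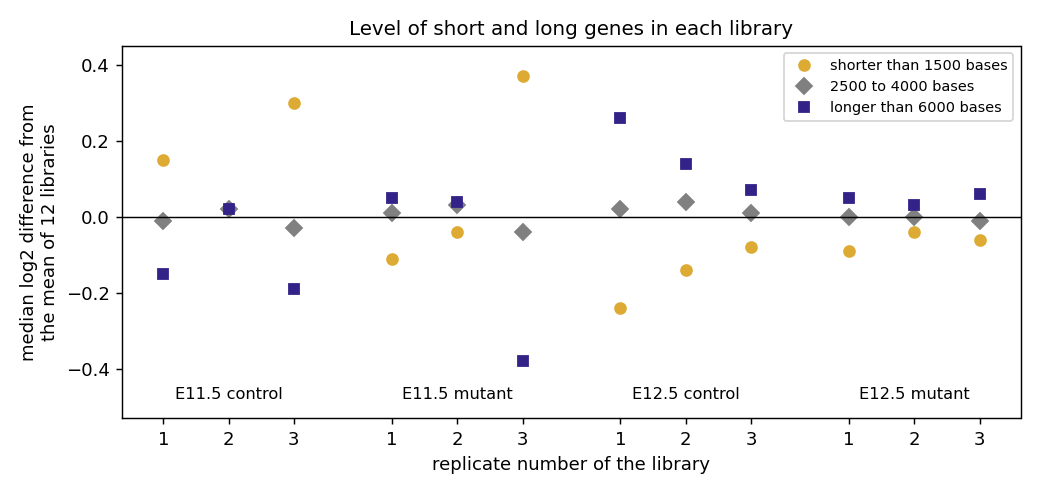
Median log2 difference of a library from the mean of all 12 libraries (vertical axis), over genes shorter than 1500 bases (circles), of 2500 to 4000 bases (diamonds) and longer than 6000 bases (squares), for each library by its replicate number (horizontal axis). Replicate 3 of the E11.5 mutants has the widest spread, from 0.37 for short genes to -0.38 for long genes.

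The start-site regions of the 8 genes were searched for the CArG box in the 250 bases before each start that RefSeq gives on GRCm38.p6. Windows were at hand for 7 of the 8 genes, with 2 starts for *Cald1*, and *Tagln* had none. An exact CArG box lay in 1 of the 8 windows, that of *Cnn2*, against 1.47% of all 32851 windows. With 1 mismatch allowed, 3 of the 8 windows held one, against 18.6% of all windows. The box is its own reverse complement as a class, so 1 strand was searched. The sequences of *Cnn2* and *Lmod1*, whose windows held matches, are shown beside that of *Cnn1*, which held none and whose ratio to *Cnn2* is described further on. Capitals mark the exact box in *Cnn2*, which begins 56 bases before the start. In *Lmod1* they mark a pair of matches with 1 mismatch each, which begin 189 and 164 bases before the start. Only 100 of the 250 bases searched are shown for each gene. They end 17 (*Cnn2*), 135 (*Lmod1*) and 38 (*Cnn1*) bases before the start.
Cnn2, chr10:79988484-79988583, + strand: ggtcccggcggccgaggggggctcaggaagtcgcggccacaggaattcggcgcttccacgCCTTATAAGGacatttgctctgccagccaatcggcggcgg
Lmod1, chr1:135324579-135324678, + strand: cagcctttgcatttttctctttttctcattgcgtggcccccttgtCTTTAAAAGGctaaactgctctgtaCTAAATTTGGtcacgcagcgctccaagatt
Cnn1, chr9:22099116-22099215, + strand: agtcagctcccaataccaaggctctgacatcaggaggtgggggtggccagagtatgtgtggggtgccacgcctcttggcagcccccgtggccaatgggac
A match is a description of these letters only.

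The 8 genes fell into 4 tiers of expression. Levels were compared per length, as reads scaled by gene length and library size (RPKM, mean of 3 libraries). In the E11.5 controls *Tagln*, *Cnn2* and *Cnn1* stood at 298, 197 and 173. These were percentiles 98.4, 97.6 and 97.1 of the 17827 genes with reads. *Cald1* at 50.3 and *Smtn* at 28.8 came next. *Synpo2* at 4.89 and *Mylk* at 4.45 followed, at percentiles 51.1 and 49.8, and *Lmod1* was last at 0.823. The 17827 include genes too low to be tested. Of the 12197 genes tested at E11.5, 8638 averaged 5 RPKM or more. The lowest *Tagln* library (263 RPKM) was above the highest *Cnn2* library (218), and the lowest *Cnn2* library (178) just above the highest *Cnn1* library (177), whereas *Synpo2* and *Mylk* overlapped. At E12.5 the controls had 157 RPKM of *Cnn2*, 144 of *Cnn1* and 131 of *Tagln*, with overlapping libraries, so that *Tagln* no longer led. *Cald1* at 49.9, *Smtn* at 36.9, *Synpo2* at 5.24, *Mylk* at 4.64 and *Lmod1* at 0.446 kept the order of the earlier stage.

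The defining heavy chain of mature smooth muscle was close to absent. *Myh11*, smooth muscle myosin heavy chain, had between 10 and 58 reads in a library and mean levels of 0.167 to 0.334 RPKM in the 4 groups, below the filter for the tests. *Acta2*, smooth muscle actin, which embryonic heart muscle also makes, had group means of 735 to 1215 RPKM. The summed level of the 10 heart muscle markers was 24511 to 27555 CPM in the E11.5 controls, against 2111 to 2604 CPM for the 10 smooth muscle and pericyte markers, of which *Acta2* made up 1541 to 1991 CPM. These were whole hearts, so a smaller number of cells that express a gene and less of its RNA in each cell cannot be told apart.

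**Figure D2:**
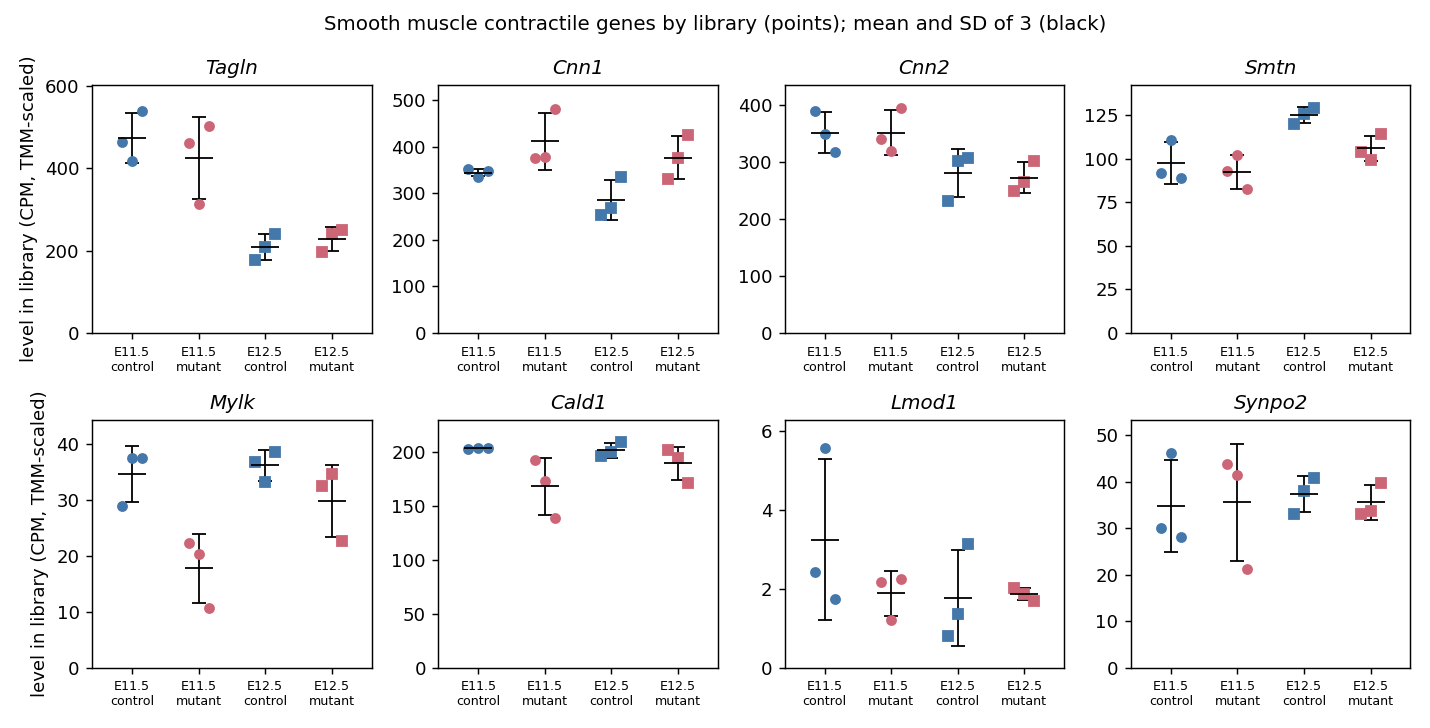
Level of each gene in each of the 12 libraries, in CPM scaled by TMM (vertical axis, from 0), by group (horizontal axis); points are libraries and the black bar and whiskers are the mean and SD of 3. *Tagln* is at 314 CPM or more in every E11.5 library and at 249 CPM or less in every E12.5 library, and the 3 E11.5 mutant libraries of *Mylk*, at 10.7 to 22.3 CPM, lie below its other libraries.

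*Tagln* lies on chromosome 9 (45929628 to 45936058 of GRCm38, - strand) and was the only one of the 8 genes whose change with age in the controls was called. It stood at 464, 417 and 539 CPM in the E11.5 control libraries and at 177, 209 and 239 CPM in the E12.5 controls. The groups did not overlap. The level fell 2.27-fold from 473 ± 61.7 to 208 ± 31.2 CPM (SD, n = 3), a log2 fold change of -1.18 (SE 0.14, edgeR adjusted p = 0.00334). An adjusted p of at most 0.05 with a fold of at least 1.5, the rule used throughout for a call, was met by 1 of the 8 genes in this comparison and by 5.31% of all 12250 genes tested.

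In the mutants *Tagln* was at 459.7, 314 and 503 CPM at E11.5 and at 196, 239 and 249 CPM at E12.5. These groups did not overlap either, but the difference of -0.89 (SE 0.18, 95% interval -1.30 to -0.48) missed the threshold (edgeR adjusted p = 0.101), in a comparison that called 0.523% of genes. The call was gained without E11.5 mutant replicate 2, the library at 314 CPM (-1.08, edgeR adjusted p = 0.0357). The difference between the stages of the mutant effect was 0.29 for *Tagln* (95% interval -0.24 to 0.81, edgeR adjusted p = 0.954), so the age change was not shown to differ between genotypes.

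The fall of *Tagln* in the controls was checked against the features that moved with stage. Genes within 10% of its length of 1586 bases, 820 of them, had a median stage effect of -0.15, and after the length correction *Tagln* still fell by 1.04 (edgeR adjusted p = 0.00174). With the sex of the embryo as a covariate, with no female among the E11.5 controls and 1 male among the E12.5 controls, its value was -0.98 and no longer called (edgeR adjusted p = 0.120), in a fit that called 19 genes in all and sets that 1 library against the 3 male E11.5 controls. The male E12.5 control, at 239 CPM, was below each of the 3 male E11.5 controls. Stage and the set of libraries made for it cannot be told apart. In the same comparison 4 of the 7 epicardium markers were called lower and 1 higher, and their summed level was 585 to 868 CPM at E11.5 and 392 to 579 at E12.5; the part of this in the fall of *Tagln* was not tested. None of the 10 heart muscle markers met both thresholds. In the annotation (GENCODE vM21), 1241 of the 1988 exon bases of *Tagln* are overlapped by an antisense gene, *Gm48529*. The 3' neighbour *Pcsk7* overlaps 108, which may be among the same bases. Without knowing whether strand was used in counting, some reads may belong to these genes.

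The other actin-binding genes changed less with age. In the controls *Cnn2* was lower at E12.5 by 0.33 on the log2 scale (SE 0.13, edgeR adjusted p = 0.112) and *Cnn1* by 0.27 (SE 0.12, edgeR adjusted p = 0.134), while *Smtn* was higher by 0.36 (SE 0.11, edgeR adjusted p = 0.0524). None of these met the rule. The adjusted p of *Smtn* was 0.0179 by DESeq2, 0.0436 in edgeR with no filter on low counts and 0.0676 in 1 edgeR fit of all 12 libraries. Its log2 fold change ran from 0.30 to 0.46 over 15 alternatives, with 0 of 15 meeting both thresholds. *Smtn* ran from 89.2 to 111 CPM in the E11.5 controls and from 119.9 to 129 CPM in the E12.5 controls, without overlap. Libraries of 4 of the 8 genes did not overlap between the stages, *Tagln*, *Cnn1* and *Cnn2* lower and *Smtn* higher, beside 37.4% of all genes tested. *Mylk* at 0.06, *Cald1* at -0.01 and *Synpo2* at 0.10 had 95% intervals between -0.29 and 0.49, and that of *Lmod1*, at -0.88, ran from -2.05 to 0.30. The profile of *Tagln* over the 12 libraries was closest to those of *Nppb*, the gene of the B-type natriuretic peptide, *Tppp3*, *Ddt*, *Fah* and *Hmga2*, with root mean square differences of 0.19 to 0.25 on the log2 scale, beside a median of 0.57 over 8748 genes. All these profiles share the same libraries and depths.

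Comparing mutant with control hearts asks how the genes respond to the loss of *Hira*, and none met the rule at either stage. At E11.5, 0 of the 8 were called, beside 0.115% of 12197 genes tested, and at E12.5 0 of the 7 tested, beside 3.03% of 12256. At an unadjusted p under 0.05, edgeR gave 1 gene at E11.5 (*Mylk*, 10.3% of all genes) and 2 at E12.5 (*Cnn1* and *Smtn*, 21.3% of all genes). DESeq2 called 1 of the 8 at E11.5, *Mylk*, and 248 of all 12197 genes, and at E12.5 0 of the 7 and 436 of all 12256. The median log2 fold change of the genes was -0.11 at E11.5, where that of all genes was -0.01, and -0.06 at E12.5, where that of all genes was 0.00. The mutant libraries did not overlap the controls for 3 genes at E11.5, *Cnn1* higher and *Mylk* and *Cald1* lower, beside 16.3% of all genes, and for 1 gene at E12.5, *Smtn* lower, beside 26.4%. The mutant effect differed between the stages for 0 of the 8 genes (edgeR adjusted p of at most 0.05), beside 0% of 12270 genes, and DESeq2 called none of the 8 and 43 genes in all. Of the 8, 0 had an unadjusted p under 0.05 in the edgeR fit, but *Mylk* did under other settings, as given with that gene. With 3 libraries against 3, an exact two-sided permutation test of 1 gene cannot go below 0.1.

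**Figure D3:**
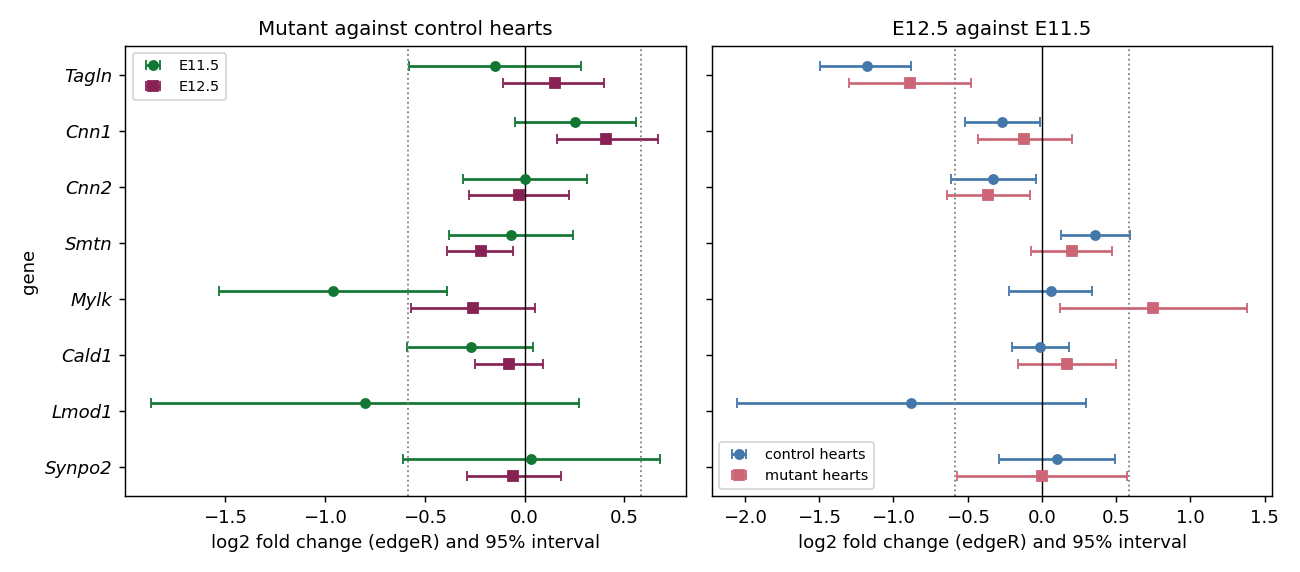
Log2 fold change of each gene (horizontal axis, points) with its 95% interval (bars), from edgeR; the left panel compares mutant with control hearts at E11.5 (circles) and E12.5 (squares), the right panel E12.5 with E11.5 in control (circles) and mutant hearts (squares). Dotted lines mark a 1.5-fold change; only the interval of *Tagln* in controls lies wholly beyond a dotted line, and *Lmod1* has no point where its level was under the filter.

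*Cnn1* encodes calponin 1, which binds actin and lowers the activity of the myosin motor. It lies on chromosome 9 (22099281 to 22109630, + strand). Its E11.5 levels were 351, 335 and 347 CPM in the controls, against 375, 377 and 481 CPM in the mutants, and at E12.5 they were 253, 269 and 334 CPM in the controls, against 331, 375 and 424 CPM in the mutants. All mutant libraries were above all controls at E11.5, and at E12.5 the lowest mutant, at 331 CPM, was just below the highest control, at 334 CPM. The log2 fold change was 0.25 at E11.5 (SE 0.14, 95% interval -0.05 to 0.56, edgeR adjusted p = 0.595), with 0.13 when mutant replicate 3 was left out and 0.48 when sex was a covariate, which sets that library alone against the controls. It was 0.41 at E12.5 (SE 0.12, 95% interval 0.16 to 0.67, edgeR adjusted p = 0.0657). The E12.5 value is a 1.33-fold difference, below the 1.5-fold rule. Its adjusted p was 0.00739 by DESeq2 and 0.0288 in edgeR with no filter on low counts, and ran from 0.00739 to 0.215 over the 15 alternatives, with 0 of 15 meeting both thresholds.

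*Acta2*, the actin that *Cnn1* and *Tagln* bind in smooth muscle, showed differences of the same size as *Cnn1*. It was at 1058 to 1437 CPM in the E12.5 controls and at 1573 to 1811 in the mutants, without overlap, a log2 fold change of 0.41 (SE 0.11, edgeR adjusted p = 0.0641) that was not called either.

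*Cnn2* encodes the calponin found also outside muscle and lies on chromosome 10 (79988584 to 79996062, + strand). Its levels were 388, 349 and 317 CPM in the E11.5 controls and 339, 318 and 394 CPM in the mutants. At E12.5 they were 231, 302 and 307 CPM in the controls, against 249, 265 and 302 CPM in the mutants. The groups overlapped at both stages. The differences were 0.00 (SE 0.14, 95% interval -0.31 to 0.31) and -0.03 (SE 0.11, 95% interval -0.28 to 0.22).

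Within a library, the ratio of *Cnn1* to *Cnn2* needs no scaling, and the lengths of these genes, 1987 and 1782 bases, are alike. The ratio was chosen after the values were seen. The *Cnn1* to *Cnn2* read ratio was 0.90, 0.96 and 1.10 in the E11.5 controls and 1.11, 1.18 and 1.22 in the mutants. At E12.5 it was 1.10, 0.89 and 1.09 in the controls, against 1.33, 1.41 and 1.40 in the mutants. The mutant libraries were above the controls at both stages, by 0.25 (SE 0.09) and 0.44 (SE 0.10) on the log2 scale, each with an exact two-sided permutation p of 0.1, the smallest that 3 against 3 allows.

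All 21 ratios among 7 of the genes, leaving out *Lmod1* for its few reads, were compared in the same way. At E11.5 the genotypes did not overlap for 8 ratios (38.1%, beside 17.7% of the 74780335 ratios among the 12230 genes that averaged 0.5 RPKM or more and had a read in every library), and at E12.5 for 10 (47.6%, beside 27.9%). At both stages in the same direction they did not overlap for 4 (19.0%, beside 7.22%). *Cnn1* was part of all 4, and it was higher in the mutants relative to *Cnn2*, *Cald1*, *Mylk* and *Tagln*. These ratios are not corrected for length, and *Cald1* (4035 bases) and *Mylk* (7809 bases) are longer than *Cnn1*. E11.5 mutant replicate 3, in which long genes were low, had the highest *Cnn1* to *Cald1* ratio, 3.45 against 1.95 and 2.18 in the other mutants. Its *Cnn1* to *Mylk* ratio was 45.06 against 16.79 and 18.57. Ratios that share a gene are not independent of each other. The *Tagln* to *Cnn1* ratio was 1.32, 1.24 and 1.55 in the E11.5 controls and 1.23, 0.83 and 1.05 in the mutants, and at E12.5 it was 0.70, 0.77 and 0.72 in the controls, against 0.59, 0.64 and 0.59 in the mutants. It was thus lower in the mutants at each stage, by 0.42 (SE 0.19) at E11.5 and 0.27 (SE 0.06) at E12.5 on the log2 scale.

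**Figure D4:**
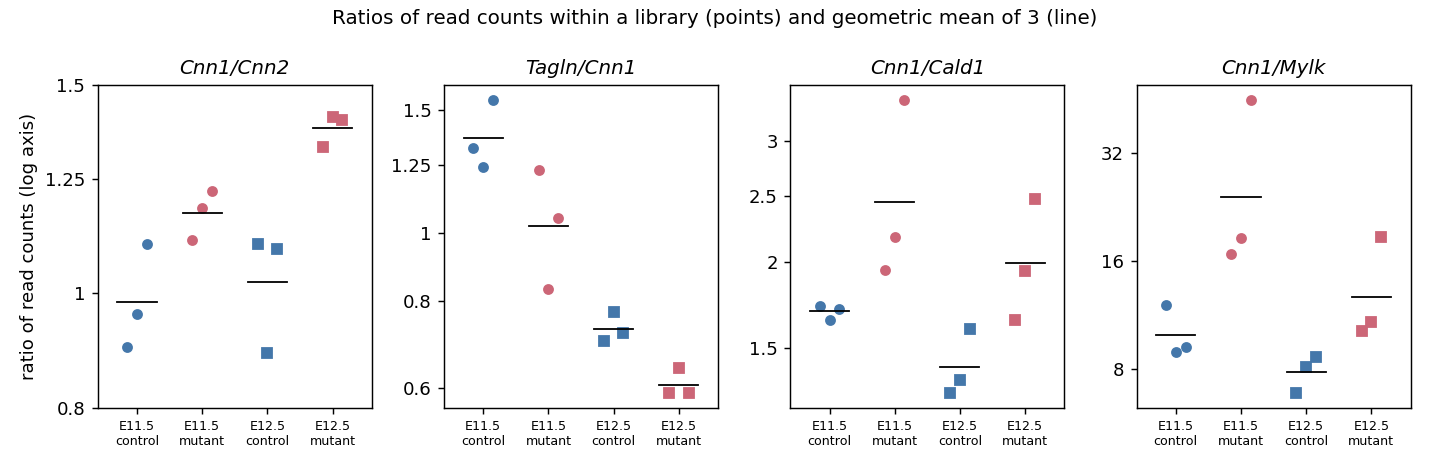
Ratio of the read counts of a pair of genes within a library (vertical axis, log scale, no correction for length) by group (horizontal axis), for the 4 pairs whose control and mutant libraries did not overlap, in the same direction at both stages; points are libraries and lines geometric means of 3. The *Cnn1* to *Cnn2* ratio ends at 1.10 in the controls and reaches 1.41 in the E12.5 mutants.

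*Mylk* had the largest estimated mutant effect. It lies on chromosome 16 (34745210 to 35002420, + strand), 15.8 megabases from *Hira*, and its counts pool the long and short kinases and telokin, a kinase-free product of the same gene. In the annotation 548 of its 11263 exon bases are overlapped by *E130310I04Rik* and 224 by *Gm21691*, both on the other strand. Reads numbered 444, 582 and 536 in the E11.5 controls and 348, 334 and 124 in the E11.5 mutants, which was 29.0, 37.6 and 37.6 CPM against 22.3, 20.3 and 10.7 CPM. Every mutant library was below every control. The E12.5 levels were 36.9, 33.2 and 38.6 CPM in the controls, against 32.5, 34.7 and 22.6 CPM in the mutants, and the groups overlapped. In the mutants the E12.5 libraries were all above those of E11.5, by 0.75 (SE 0.28, edgeR adjusted p = 0.434), which was not called.

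The log2 fold change of *Mylk* was -0.96 at E11.5 (95% interval -1.53 to -0.39, edgeR adjusted p = 0.206), or 1.95-fold lower, and -0.26 at E12.5 (95% interval -0.57 to 0.05, edgeR adjusted p = 0.328). The difference between the stages was 0.68 (95% interval -0.01 to 1.37, edgeR adjusted p = 0.954). It was 0.43 without E11.5 mutant replicate 3 and 0.84 with the length correction, its unadjusted p ran from 0.00612 (the length correction) to 0.132 over the alternatives, and its adjusted p was 0.344 at the lowest. *Mylk* was called at E11.5 in 3 of 14 alternatives, and its adjusted p ran up to 0.660 over them. DESeq2 (adjusted p = 0.0241) called 248 of 12197 genes in all, and one edgeR fit of all 12 libraries (adjusted p = 0.0483) called 224, beside the 14 of the edgeR fit of this stage. With sex as a covariate in edgeR (-1.70, adjusted p = 0.0317, 39 genes called) the effect is that of mutant replicate 3 alone against the controls, because it is the only male mutant and all 3 controls are male, so this call rests on 1 mutant library. The lowest library, mutant replicate 3, was the one in which long genes were low, and *Mylk* is 7809 bases long. Without it the value was -0.71 (edgeR adjusted p = 0.111), and with the length correction -1.01 (edgeR adjusted p = 0.0580). The 422 genes within 10% of that length had a median of 0.03.

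Most epicardium markers, like *Mylk*, were lower in the E11.5 mutants. *Wt1*, *Tbx18*, *Upk3b*, *Tcf21* and *Aldh1a2*, 5 of the 7, were lower in every mutant library, and *Msln* overlapped. *Krt19* was higher in every mutant library, at a mean of 145 against 92.6 CPM. Of all genes tested, 16.3% did not overlap in either direction. Their summed level was 585 to 868 CPM in the controls, against 493 to 558 CPM in the mutants, without overlap. All 7 were tested, with a median log2 fold change of -0.70 and 0 calls, and none was without reads. An unadjusted p under 0.05 in edgeR was met by 6 of the 7, beside 10.3% of all genes. At E12.5 the sums overlapped, with 392 to 579 CPM in the controls, against 556 to 628 CPM in the mutants. *Krt19* and *Msln* were called higher there, and the 5 markers that were lower at E11.5 overlapped. From E11.5 to E12.5 in the controls, 4 of the 7 markers were called lower and 1 higher (median -0.65), while the *Mylk* libraries overlapped. The part of epicardial cells in the *Mylk* values was not tested. The profile of *Mylk* over the libraries was closest to those of *Gucy1a3*, a subunit of the nitric oxide receptor of smooth muscle, *Sesn1*, *Vwa5a*, *Sema3d* and *Dcn*, the gene of decorin, with root mean square differences of 0.13 to 0.20, beside a median of 0.47 over 8749 genes.

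*Cald1* encodes caldesmon, which holds back the myosin motor on actin and is made in a heavy form in smooth muscle and a light form elsewhere, and gene counts pool the forms. Its E11.5 levels were 202, 203 and 203 CPM in the controls, against 192, 173 and 139 CPM in the mutants, and the mutants were all lower. The difference of -0.27 (SE 0.14, edgeR adjusted p = 0.576) was not called, and it was -0.15 without mutant replicate 3 and -0.54 with sex as a covariate. At E12.5 the controls were at 196, 199.7 and 209 CPM and the mutants at 201, 194 and 171 CPM, which overlapped (-0.08, SE 0.08, edgeR adjusted p = 0.603).

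*Smtn* encodes smoothelin, a protein of contractile smooth muscle. At E11.5 its levels overlapped, at 91.9, 111 and 89.2 CPM in the controls, against 92.8, 102 and 82.7 CPM in the mutants (-0.07, SE 0.14). At E12.5 it stood at 119.9, 126 and 129 CPM in the controls, against 104, 99.6 and 114 CPM in the mutants, each mutant below each control. The difference was -0.22 (SE 0.08, 95% interval -0.39 to -0.06, edgeR adjusted p = 0.119), a 1.17-fold lower level that was not called. In the annotation 714 of its 4380 exon bases are overlapped by *Gm11946* on the other strand.

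*Synpo2* and *Lmod1* gave the widest errors at E11.5. *Synpo2* had 30.1, 46.2 and 28.1 CPM in the E11.5 controls and 43.8, 41.5 and 21.2 CPM in the mutants. It is 7116 bases long, and replicate 3 was again the lowest mutant. The mutant effect was 0.03 at E11.5 (SE 0.28) and -0.06 at E12.5 (SE 0.11), where the levels were 33.1, 37.9 and 40.8 CPM in the controls, against 33.1, 33.7 and 39.7 CPM in the mutants. *Lmod1* had between 12 and 86 reads in a library. Its levels were 2.42, 5.56 and 1.75 CPM in the E11.5 controls and 2.18, 1.22 and 2.24 CPM in the mutants, a difference of -0.80 with a 95% interval from -1.87 to 0.27. The control with 86 reads stood apart from those with 37 and 25. At E12.5 it was at 0.792, 1.35 and 3.13 CPM in the controls, against 2.01, 1.87 and 1.70 CPM in the mutants, under the filter of 0.5 RPKM, and was not tested.

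Of 49 other genes of the contractile pathway in 6 lists, 44 were tested at each stage. At E11.5, 0 were called higher and 1 lower, and at E12.5 1 higher and 1 lower, with medians of 0.00 and -0.01. *Itga8*, an integrin subunit of smooth muscle and mesenchyme, was lower at both stages, by 1.34 at E11.5 (edgeR adjusted p = 0.0249) and by 0.85 at E12.5 (edgeR adjusted p = 0.00561). *Lmod3*, the leiomodin of striated muscle, was higher in every mutant library at both stages, by 0.83 at E11.5 (edgeR adjusted p = 0.0801, not called) and by 0.84 at E12.5 (edgeR adjusted p = 0.0108), while *Lmod2*, the cardiac leiomodin, was at -0.12 (edgeR adjusted p = 0.528).

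By list, the E12.5 results were as follows. Of 9 thin and thick filament genes tested 0 were called, with *Smtnl2*, a smoothelin relative, at 0.35 (edgeR adjusted p = 0.0364, under 1.5-fold), *Acta2* at 0.41 and *Csrp1*, a LIM protein of smooth muscle, at 0.27 (edgeR adjusted p = 0.0655). The 3 relatives of transgelin and calponin had 0 calls, with *Tagln2* at 0.26, *Tagln3* at -0.11 and *Cnn3* at 0.03. Among 5 leiomodin, synaptopodin and kinase relatives *Lmod3* was the 1 call, and the cardiac light chain kinase *Mylk3* was at -0.44 (edgeR adjusted p = 0.0150, under 1.5-fold), with *Synpo2l* at -0.17. The 9 genes that set light chain phosphorylation had 0 calls, led by the myosin phosphatase subunit *Ppp1r12a* at -0.24 and the kinase gene *Rock2* at -0.23.

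The list of serum response factor, its cofactors and other regulators had 0 calls of 7. It gave *Hexim1* at -0.28, *Klf4* at 0.34, and *Myocd*, the smooth and heart muscle coactivator, at -0.27 (edgeR adjusted p = 0.211). Of 11 focal adhesion and dense body genes *Itga8* was the 1 call, with *Tns1* at -0.25 and *Ilk* at -0.17. Of 9 smooth muscle and pericyte markers tested at E12.5, 2 were called and both were lower. These were *Pdgfrb*, the receptor of mural cells, by 0.69 (edgeR adjusted p = 0.00844) and *Abcc9*, a potassium channel subunit, by 0.73 (edgeR adjusted p = 0.0391). Mean *Abcc9* was 176 CPM in the controls and 106 CPM in the mutants, while *Kcnj8*, of the same list, was at 2.82 and 2.23 CPM. Which cells made the *Abcc9* RNA was not tested. *Heyl* was at -0.51 (edgeR adjusted p = 0.199). At E11.5, 0 of the 8 markers tested were called.

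Markers of other cells at E12.5 gave these counts. For heart muscle 0 of 10 were called, with *Ttn* at -0.35, *Tnni1* at 0.19 and *Tnnt2* at 0.20. For skeletal muscle 1 of 5 was called, *Acta1*, higher by 0.85, with *Ckm* at -0.45 and *Myog* at 1.23. For endothelium 0 of 7 were called, with *Nfatc1* at 0.53, *Npr3* at 0.30 and *Pecam1* at 0.24. For epicardium 2 of 7 were called, *Krt19*, higher by 1.06, and *Msln*, higher by 1.03, with *Upk3b* at 0.19. For cushion mesenchyme 1 of 7 was called, *Postn*, which fell by 0.61, with *Tbx20* at -0.17 and *Msx1* at -0.36. For neural crest 0 of 1 were called (*Ednrb* at 0.18), and 4 of 5 measured markers were under 1 CPM in the controls. For erythroid cells 3 of 4 were called lower, *Slc4a1* by 1.64, *Hbb-y* by 0.93 and *Hba-a1* by 0.73. At E11.5 none of these 7 marker lists held a call. The summed skeletal muscle markers nevertheless did not overlap, at 305 to 394 CPM in the controls, against 536 to 614 CPM in the mutants. *Acta1*, most of that sum, was higher by 0.81 (edgeR adjusted p = 0.103). Of the 8 markers, 5 were under 1 CPM in both E11.5 groups, so the sum does not show skeletal muscle cells. The endothelial markers had a median of 0.44, with 3 of 7 at an unadjusted p under 0.05 in edgeR. The part of other cell types in the values of the contractile genes was not tested.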

How the data were processed

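RNA from whole embryonic hearts was sequenced. Per the submitters' processing notes, reads were handled with Bowtie2 and DESeq on mm10; the counting program, gene models and use of strand are not given in the sources used here. The authors deposited a table named RPKM whose values are here treated as a score, being the product of a whole count, a gene length and a library factor, and a comparison per stage whose group averages the authors made from raw counts (expected count values, a mean of 3 libraries). Columns of the authors' own fold changes, z scores and p-values were not used. Counts were recovered from both tables; all lay within 5.03e-09 of a whole number, for 17827 of 19424 genes, and another 1597 had no count. Chromosomes X and Y were not in the comparisons and not tested. Sex was called from 4 Y-linked genes (male at 100 counts or more in sum).

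Counts were tested with edgeR 4.0.16 (R 4.3.3), quasi-likelihood with TMM, for genes averaging 0.5 RPKM or more in the libraries of a fit; called means an adjusted p (Benjamini-Hochberg, over all genes tested) of at most 0.05 and a fold of at least 1.5 (no fold for the difference between stages). Standard errors were derived from the F statistic. DESeq2 1.42.0, limma 3.58.1 on log2(RPKM + 0.5), other filters and scalings, sex, the replicate block, a length correction and leaving out each library were alternatives. All 8 genes are named; of the lists, every gene called in a mutant effect and up to 3 with the lowest p at E12.5 (1 such gene is not reported here); profile neighbours were the 5 nearest among genes averaging 5 RPKM or more by root mean square difference of centred log2(RPKM + 0.5), named for genes whose range was above 1 and described for *Tagln* and *Mylk*. The genes and lists were chosen with earlier results of these data known. Labels do not say whether libraries came from separate embryos or litters, so p-values measure only the spread between these libraries. The scripts were tested on simulated data.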

Additional observations from a re-analysis of the deposited data

How the results depend on the processing

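Of 348 values of the genes recomputed under alternatives, 318 kept their direction and their side of the thresholds. The count of called genes stayed the same in 76 of 84 alternatives. At E11.5 it became 1, for *Mylk*, with the sex covariate, with a fit of all 12 libraries and with DESeq2. For the stage effect in mutants it became 1, for *Tagln*, in a fit of all 12 libraries, with DESeq2 and with no filter, and it ran from 0 to 1 when single libraries were left out. For the stage effect in controls it became 0 with the sex covariate. Leaving out a library gave -1.30 to -1.08 for *Tagln* there and -1.08 to -0.76 in mutants. Signs turned for values near 0 that were never called. At E11.5 *Cnn2* was 0.00 with DESeq2, 0.17 with sex and 0.01 with the length correction, and -0.10 to 0.07 with a library left out. *Synpo2* was 0.00 with limma and with the length correction and -0.72 with sex, and -0.15 to 0.29 with a library left out. *Tagln* was 0.09 with sex and -0.29 to 0.02 with a library left out, and *Smtn* was -0.15 to 0.03. At E12.5 *Synpo2* was 0.02 with the length correction and -0.15 to 0.01 with a library left out, and *Cnn2* was -0.15 to 0.04. Except where an alternative changes the libraries or genes that enter, the cause was not tested. Correlations of deviations between libraries of the same replicate number were -0.11, 0.52 and 0.37 at E11.5 and 0.00, 0.02 and -0.08 at E12.5. Replicate numbers thus did not pair the libraries at E12.5, while the E11.5 values were mixed. With the replicate block, *Mylk* at E11.5 had an edgeR adjusted p of 0.122 and *Cnn1* at E12.5 was 0.42 (edgeR adjusted p = 0.0119). *Tagln* in controls was -1.19 (edgeR adjusted p = 6.11e-04). No call on the 8 genes changed, while the calls over all genes became 96 from 14 at E11.5 and 445 from 371 at E12.5. Over all genes at E11.5 DESeq2 called 248. At E11.5 the sex covariate rests each value on the 1 male mutant, replicate 3, and in the controls' stage effect on the 1 male E12.5 library. *Lmod1* had 12 to 86 reads in a library.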
